A study of Mus musculus and Rattus norvegicus with 28 samples.

Results

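The genes described here are 54 rat genes that were nearly silent in cultured neonatal cardiomyocytes given the solvent DMSO and were expressed in cardiomyocytes given trichostatin A (TSA). They were chosen by their measured levels, in FPKM (sequenced fragments scaled to transcript length and library depth). A gene was taken when it stood under 1 FPKM in all 3 DMSO libraries and at 2 FPKM or more in all 3 TSA libraries. Of 24091 named rat genes, 10316 were under 1 FPKM in all 3 DMSO libraries. Of these silent genes, 56 met the TSA threshold, and the 2 with names starting with Tub (Tubb4a and Tuba8) were left out by the rule, so that 54 remained, or 0.523% of the silent genes. Because the TSA and DMSO levels chose the genes, their rise is described and was not tested. The reverse pattern, at least 2 FPKM in all DMSO and under 1 FPKM in all TSA libraries, was met by 2 named genes, Atp6v0d2 and Ocstamp, which were looked up after the values were seen.

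The rat cells were neonatal ventricular cardiomyocytes of Sprague Dawley rats of both sexes on postnatal day 1 (P1), from left ventricles, with cells that attached early to plastic discarded. From one day after plating, the cells of 3 libraries received DMSO and those of the other 3 received 100 nM TSA. The methods have treated cells collected after 48 h, a time also in the file headers of the DMSO libraries, and describe transfection with siRNA beside the treatment. Whether the cells sequenced here were transfected is not given in the sources used here. The mouse samples were untreated, freshly isolated left ventricular cardiomyocytes of wild-type C57BL/6 mice of both sexes at embryonic day 18.5 (E18.5), P1, P3 and P7, with 2 RNA-seq and 2 ATAC-seq libraries at each time point. ATAC-seq marks open chromatin by the insertion of a transposase. Each library's number of animals is not given in the sources used here, so a p-value measures the spread between these libraries, which may be technical. Read depth was 28.2 M to 38.5 M aligned reads in the rat and 29.3 M to 37.5 M in the mouse RNA-seq libraries, as estimated from the deposited coverage and FPKM.

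TSA blocks class I and class II histone deacetylases, the enzymes that take acetyl groups off histone tails. Acetylated histones are a general mark of active promoters and enhancers, and deacetylases act at a gene when a repressor bound there brings them in. Outside the nervous system many neuronal genes are kept off by such repressors, REST being the best known, and in heart muscle class II deacetylases bind the MEF2 transcription factors. These facts are background and were not tested here.

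The 54 genes rose from a median of 0.472 FPKM to a median of 3.36 FPKM, taking the mean of each gene over 3 libraries. Their TSA means ran from 2.12 to 14.8 FPKM, with 20 genes from 2 to under 3, 25 from 3 to under 5, 5 from 5 to under 10 and 4 above 10 FPKM. The ratio of the TSA mean to the DMSO mean had a median of 8.12 and ran from 2.93 (Pcdh1) to 123 (LOC103692976). It was at least 4 in 47 genes, at least 10 in 23 and at least 50 in 9. In absolute terms the rises were modest, a median difference of 3.05 FPKM between the group means, with only Rundc3a, Cacng7, Cdhr1 and Sez6l2 above 10 FPKM with TSA.

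The gene with the highest TSA level was Rundc3a, which encodes a RUN domain protein found mainly in neurons and endocrine cells (rn6, chr10:90342051-90351170, plus strand). It stood at 0.391, 0.447 and 0.369 FPKM with DMSO and 16.05, 17.1 and 11.2 FPKM with TSA, a 36.7-fold ratio of the means. Cacng7, an auxiliary subunit of AMPA-type glutamate receptors and calcium channels, lay at 0.158, 0.272 and 0.277 FPKM with DMSO and 12.3, 15.1 and 8.60 FPKM with TSA (50.8-fold; chr1:64374603-64405149, minus strand). In both genes TSA replicate 3 was the lowest of the TSA libraries and still far above every DMSO library. The photoreceptor cadherin Cdhr1 had the opposite order, with 0.521, 0.346 and 0.601 FPKM with DMSO and 7.43, 8.66 and 15.2 FPKM with TSA, so that TSA replicate 3 was the highest (21.3-fold; chr16:14328160-14348046, minus strand). Sez6l2, a neuronal membrane protein of the seizure-related 6 family, went from 0.149, 0.246 and 0.105 FPKM to 11.8, 10.6 and 8.14 FPKM (61.1-fold; chr1:198383201-198403544, plus strand). Crmp1, a collapsin response mediator of semaphorin signalling in growing axons, was measured at 0.430, 0.703 and 0.587 FPKM with DMSO and 9.20, 9.85 and 5.96 FPKM with TSA (14.5-fold; chr14:78266931-78308933, minus strand). The TSA libraries of all 5 genes lay above 5 FPKM and their DMSO libraries below 1 FPKM.

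A next group were genes of secretory and endocrine cells. Scg5, the 7B2 chaperone of a prohormone convertase, stood at 0.0983, 0.0479 and 0.0479 FPKM with DMSO and 5.05, 4.80 and 6.49 FPKM with TSA (84.1-fold). Resp18, an endocrine-specific secretory granule protein, was listed at 0 in DMSO replicates 2 and 3, at 0.157 FPKM in replicate 1, and at 5.42, 5.04 and 4.38 FPKM with TSA. Their DMSO levels rest on very few reads, an estimated 7.85 reads for Scg5 and 4.68 reads for Resp18 over all 3 libraries, against 665 and 357 reads with TSA. The same holds for the other genes with the largest ratios. LOC103692976 had a ratio of 123 on 4.99 DMSO reads, Tmem59l, a brain-enriched membrane protein, 106 on 5.11 reads, and Fbxo2, an F-box protein of neurons that marks glycoproteins for degradation, 62.1 on 11.9 reads. Fbxo2 reached 4.46, 5.44 and 6.83 FPKM with TSA. In 5 genes a DMSO library was listed at 0, so the ratios of this group are less certain than the TSA levels.

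Adhesion and matrix genes made up another group. Icam5, an adhesion molecule of forebrain neurons, was at 0.683, 0.777 and 0.474 FPKM with DMSO and 5.83, 5.48 and 5.41 FPKM with TSA (8.65-fold), and its TSA libraries differed little from each other. Hapln4, a link protein of the matrix around neurons, rose 58.8-fold to a mean of 3.98 FPKM, and Clstn3, the synaptic adhesion protein calsyntenin 3, was at 0.0451, 0.0724 and 0.0945 FPKM with DMSO and 3.20, 4.22 and 3.65 FPKM with TSA. Col9a2, a chain of cartilage collagen IX, had a mean of 0.735 FPKM with DMSO and 4.40 with TSA. Plxdc1, a plexin domain protein of tumour endothelium, went from a mean of 0.494 to 4.30 FPKM. The protocadherin Pcdh1 showed the smallest ratio of the 54 (2.93), with 0.668, 0.952 and 0.854 FPKM with DMSO and 2.20, 2.74 and 2.31 FPKM with TSA.

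Ion channels, transmitter release and signalling gave further members. Htr3a, the A subunit of the serotonin-gated channel, stood at 0.866, 0.783 and 0.393 FPKM with DMSO and 5.59, 7.49 and 2.96 FPKM with TSA, where the lowest TSA library was again replicate 3. Kcnab3, a beta subunit of voltage-gated potassium channels, was at 0.393, 0.573 and 0.685 FPKM with DMSO and 2.75, 3.02 and 3.91 FPKM with TSA. Slc17a7, the vesicular glutamate transporter VGLUT1, was at 0.787, 0.749 and 0.161 FPKM with DMSO and 2.77, 4.33 and 4.28 FPKM with TSA, and Unc13a, which primes synaptic vesicles for release, at 0.551, 0.661 and 0.770 FPKM with DMSO and 2.03, 2.11 and 2.21 FPKM with TSA. The growth factors were Gdf10, a bone morphogenetic protein relative, at 0.505, 0.442 and 0.173 FPKM with DMSO and 5.18, 6.02 and 2.33 FPKM with TSA, and Fgf11, an intracellular fibroblast growth factor homologue, at 0.807, 0.896 and 0.740 FPKM with DMSO and 2.86, 3.40 and 5.27 FPKM with TSA. Nmnat2, the axonal enzyme that makes NAD, had 0.159, 0.132 and 0.301 FPKM with DMSO and 3.27, 3.34 and 6.002 FPKM with TSA, and the actin regulator Wasf3 0.364, 0.315 and 0.438 FPKM with DMSO and 5.005, 5.64 and 2.69 FPKM with TSA. The groups did not overlap in any of these genes, as the rule requires.

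Transcription factors, secreted proteins and enzymes of other kinds were among the 54 as well. Sox18, an endothelial transcription factor, was at 0.862, 0.996 and 0.249 FPKM with DMSO and 2.81, 3.83 and 2.52 FPKM with TSA, and the chemokine Ccl6 at 0.781, 0.499 and 0.0846 FPKM with DMSO and 2.48, 2.44 and 2.80 FPKM with TSA. Prph, the intermediate filament peripherin of peripheral neurons, was at 0.272, 0.462 and 0.917 FPKM with DMSO and 2.44, 2.57 and 2.80 FPKM with TSA. Akr1c13, an aldo-keto reductase, had 0.209, 0.326 and 0.372 FPKM with DMSO and 4.56, 3.64 and 2.14 FPKM with TSA, and the lipoxygenase Alox15 0.852, 0.857 and 0.429 FPKM with DMSO and 2.05, 2.34 and 2.12 FPKM with TSA. The metallothionein Mt3, best known as a growth inhibitory factor of brain, was at 0.145, 0.270 and 0.141 FPKM with DMSO and 2.39, 2.498 and 2.39 FPKM with TSA, and Ppp1r1b, the phosphatase inhibitor DARPP-32, at 0.345, 0.372 and 0.395 FPKM with DMSO and 2.43, 2.36 and 4.55 FPKM with TSA. C1qtnf4, a secreted C1q and tumour necrosis factor related protein, went from a mean of 0.870 to 4.11 FPKM. The remaining 22 genes had TSA means from 2.23 (Minar2) to 4.09 FPKM (RGD1560394) and ratios from 3.03 (Lin7b) to 36.0 (Fez1). They include the axonal adaptor Fez1, the membrane scaffolds Lin7b and Mpp3, the prion-like protein Sprn (Shadoo), the acyltransferase Mogat2, the kinase Wnk4 that controls salt transport, the melanosome protein Pmel, the actin-binding Ablim3, the splicing factor Srsf12, the ethanolamine kinase Etnk2 and the tetraspanin Tspan33. The others are Abhd3, AC095693.1, AC127084.5, Arap3, Cmtm8, Minar2, Pianp, RGD1560394, Rnf208, Soga3 and Zcchc18.

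**Figure D1:**
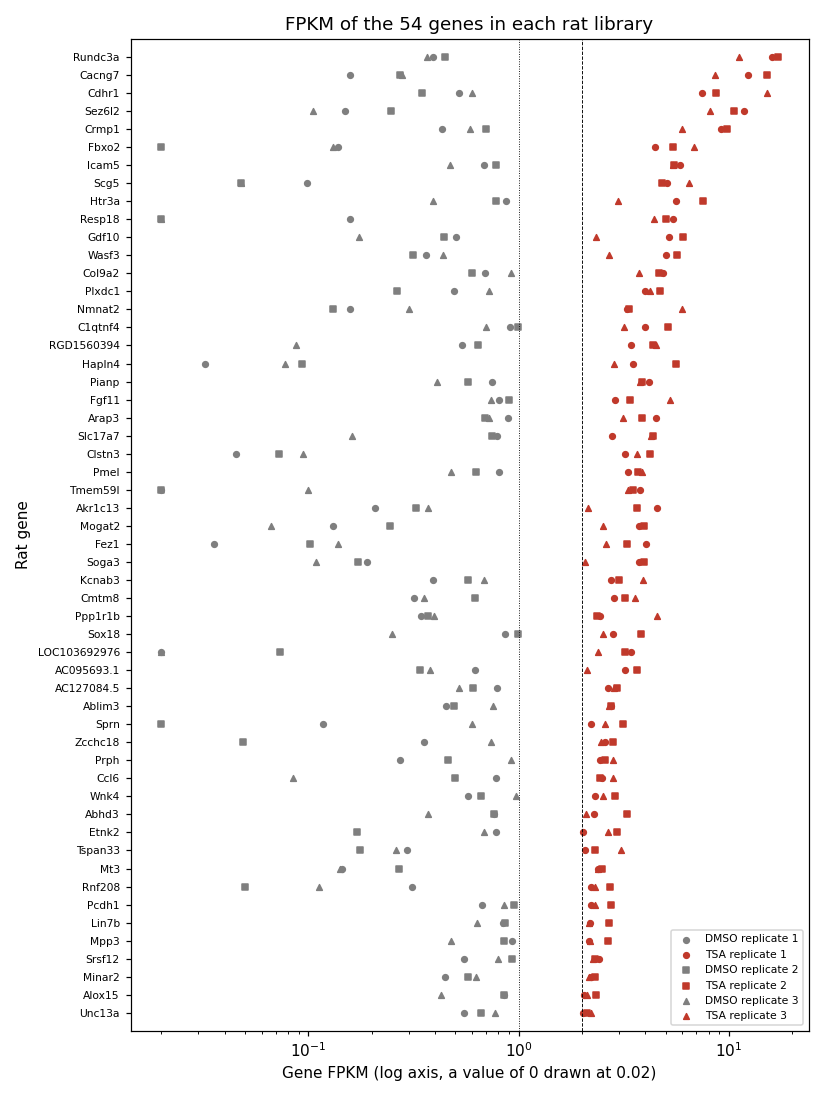
Level of each of the 54 genes (rows) in the 3 DMSO (grey) and 3 TSA (red) rat libraries, in FPKM on a log axis, with circles, squares and triangles for replicates 1, 2 and 3. The dotted and dashed lines mark the thresholds of 1 and 2 FPKM that chose the genes, and the highest row is Rundc3a with a TSA mean of 14.8 FPKM.

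No single TSA library was the highest for all genes. Replicate 2 was the highest TSA library in 29 genes, replicate 3 in 14 and replicate 1 in 11, while replicate 3 was the lowest in 28 and replicate 1 in 23. In 5 genes the highest TSA library was at least 2 times the lowest, Cdhr1 among them. With same-numbered DMSO and TSA libraries set against each other, the median ratio was 7.02, 7.41 and 8.63 for replicates 1, 2 and 3, over the 52, 50 and 52 genes whose DMSO value was above 0. The genes nearest inside the TSA threshold were Etnk2 (lowest TSA library 2.01 FPKM), Unc13a (2.03) and Alox15 (2.05). The nearest outside were Aldh1a1 (1.98), Kiaa0408L (1.98) and Prkar1b (1.97). On the DMSO side C1qtnf4 (0.997 FPKM in its highest DMSO library), Sox18 (0.996) and Wnk4 (0.969) fell just inside and Abcg2 (1.01), Ca5b (1.01) and Efna3 (1.02) just outside. The silent genes as a whole stayed low, since 9643 of the 10316 were under 1 FPKM in all 3 TSA libraries and 219 reached at least 1 FPKM in all 3.

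The cultures held more than cardiomyocytes, and the libraries labelled replicate 3 stood apart in both groups. The summed level of 15 cardiomyocyte markers was 16608, 17503 and 26659 FPKM in DMSO replicates 1 to 3 and 16615, 14918 and 38449 FPKM in the TSA replicates. Nppa (1161, 1068 and 7396 FPKM with DMSO) and Actc1 (3542, 4254 and 7219 FPKM) made up much of the excess in DMSO replicate 3. The other cardiomyocyte markers differed in direction there, with Atp2a2 lower at 1154, 1253 and 445 FPKM. These 3 markers are named after their values were seen. The summed level of 11 fibroblast markers was 7132, 7812 and 7966 against 6691, 6428 and 4183 FPKM, and that of 10 macrophage markers 1034, 1053 and 501 against 567, 486 and 430 FPKM. Endothelial markers summed to 67.7 to 86.8 FPKM with DMSO and 77.0 to 87.8 FPKM with TSA, and Schwann and glial markers to 31.6 to 36.1 and 30.2 to 44.9 FPKM. Eng made up most of the endothelial sums. Of 8 endothelial markers tested with limma 0 were called, with 3 higher and 2 lower at an unadjusted p under 0.05. Smooth muscle and pericyte markers ran from 910 to 2411 and from 678 to 1643 FPKM, epicardial markers from 42.1 to 49.0 and from 27.1 to 53.5 FPKM, and erythroid markers from 5.24 to 32.1 and from 39.2 to 66.9 FPKM. The fibroblast sums were lower and the erythroid sums higher in all 3 TSA than in all 3 DMSO libraries, and the other sums overlapped between the groups. Marker by marker, 1 of the 10 tested fibroblast genes was higher and 0 lower by limma at an unadjusted p under 0.05. Their median log2 change was -0.23. Between libraries of the same number, the macrophage sum and the smooth muscle and pericyte sum (994 to 680, 910 to 678 and 2411 to 1643 FPKM) were lower with TSA in all 3 pairs. Acta2 and Tagln made up most of the smooth muscle and pericyte sum. Over the 10 markers of that list the median log2 change was -0.01, with 3 higher and 0 lower by limma at an unadjusted p under 0.05. No marker of these lists is among the 54 genes. None of the cardiomyocyte, fibroblast and macrophage markers was silent with DMSO, so the rule could not choose them. In the other lists 1 to 5 markers were silent. Single markers were called higher with TSA by limma, namely the atrial light chain Myl7 of cardiomyocytes with a log2 change of 1.44 (SE 0.27, adjusted p = 0.040), the fibroblast marker Thy1 with 2.24 (SE 0.32, adjusted p = 0.019), the pericyte marker Rgs5 with 1.80 (SE 0.18, adjusted p = 0.0069), the macrophage marker C1qc with 1.61 (SE 0.25, adjusted p = 0.022) and the epicardial marker Upk1b with 1.27 (SE 0.26, adjusted p = 0.049). Most other macrophage markers had negative log2 changes, with a median of -0.82 over the 10 markers and 6 lower and 2 higher at an unadjusted p under 0.05. The limma call of Myl7 was lost without a filter on low values (adjusted p = 0.067). With the replicate number as a block the limma call of Upk1b was lost (adjusted p = 0.075). In such bulk samples fewer cells of a type and less RNA per cell cannot be told apart, and the part of cell mixture in the levels above was not tested. When both replicates 3 were left out, 111 genes met the thresholds, all 54 among them.

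Genes of related function outside the 54 were read from lists of symbols. Across all 13625 rat genes tested with limma (a linear model with a pooled spread), 1.81% were called higher and 0.316% lower with TSA, a call needing a log2 change above 1 in size on the log2(FPKM + 1) scale and an adjusted p under 0.05, and the median change was 0.03. Of 50 neuronal genes, Crmp1, Unc13a and Slc17a7 belong to the 54. Of the others, 12 were expressed enough to test, 6 were called higher and 0 lower (9 and 0 at an unadjusted p under 0.05), and their median log2 change was 1.1. Mapt, the microtubule protein tau, changed by 2.18 (SE 0.32, adjusted p = 0.019), and the neuronal ubiquitin hydrolase Uchl1 by 1.90 (SE 0.36, adjusted p = 0.039), which missed the threshold with other library scaling (adjusted p = 0.057). The microtubule regulator Stmn2 stood at 0.0872, 0.0277 and 0 FPKM with DMSO and 1.97, 1.53 and 1.15 FPKM with TSA (log2 change 1.28). Outside the 54, 38 of the neuronal genes were silent with DMSO, and 4 of the 38 reached at least 1 FPKM in all TSA libraries. Over all silent named genes, 219 of 10316 reached that level. A gene silent with DMSO could enter the test only in this way and could hardly be called other than higher. These 4 are thus among the 12 tested, and Stmn2 and Celsr3 are among the 6 called, so that count and median are descriptions. The same holds for such genes in the lists below and in the shares over all tested genes. The calls depend on single libraries. No gene of the table passed limma's adjusted threshold when TSA replicate 1 or 2 was left out (1788 and 1740 genes at an unadjusted p under 0.05), and 72, 125 and 140 genes were called without DMSO replicate 1, DMSO replicate 2 or TSA replicate 3, and 446 without DMSO replicate 3.

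Synaptic and vesicle proteins, with Unc13a among the 54, had 66 other tested members, 9 called higher and 0 lower (24 and 2 at an unadjusted p under 0.05), at a median log2 change of 0.25. Syt7, a calcium sensor of vesicle release, changed by 1.89 (SE 0.27, limma adjusted p = 0.018). The active zone protein Rims2 entered the test only through its TSA libraries and is given as a description. It stood at 0.107, 0.186 and 0.144 FPKM with DMSO and 2.19, 2.14 and 1.88 FPKM with TSA. In this list 7 of the 66 tested genes were silent with DMSO. Of the ion channels, with Htr3a, Kcnab3 and Cacng7 among the 54, 76 others were tested, 4 were called higher and 1 lower (23 and 5 at an unadjusted p under 0.05). The solute carriers, with Slc17a7, had 4 higher and 1 lower of 216 (22 and 21 at an unadjusted p under 0.05), and the growth and guidance factors, with Fgf11 and Gdf10, 2 higher and 0 lower of 96 (15 and 8 at an unadjusted p under 0.05). Metabolic enzymes of lipids and xenobiotics, with Alox15 and Akr1c13, had 6 higher and 1 lower of 96 (27 and 13 unadjusted), and immune genes, with Ccl6, 10 higher and 2 lower of 144 (29 and 30 unadjusted). Of 44 cadherins, claudins and connexins beside Pcdh1, 1 was higher and 0 lower by limma (8 and 2 at an unadjusted p under 0.05). None of 81 developmental transcription factors tested beside Sox18, nor of 9 intermediate filament genes beside Prph, was called by limma in either direction (at an unadjusted p under 0.05, 4 higher and 5 lower, and 1 higher and 1 lower). The 381 G protein coupled receptors held no member, and the 325 zinc finger genes, 90 motor protein genes and 89 cilia and flagella genes held none either. Of the enzymes that TSA blocks and the MEF2 factors, 10 histone deacetylase genes and 3 MEF2 genes were tested and 0 were called by limma (3 deacetylase genes and 0 MEF2 genes at an unadjusted p under 0.05), with median log2 changes of -0.01 and 0.07.

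Read depth along the exons shows which parts of the annotated transcripts were present. Of the 54 genes, 39 have 1 annotated transcript, and 37 of these have more than 1 exon. In 26 of the 37, or 70.3%, every exon had a mean depth of at least 1 read per base in all 3 TSA libraries and counted as covered, and 336 of the 368 exons of the 37 genes (91.3%) were covered. Among 4071 genes that were not silent with DMSO, had 1 transcript and lay in the same range of TSA levels, 76.6% of genes and 94.7% of exons were covered by the same measure. Sez6l2 was covered in all of its 18 exons at mean depths of 32.2 to 74.6, against 0.132 to 2.15 with DMSO. In 8 genes the first annotated exon was below 1 in at least 1 TSA library, namely Alox15, Cacng7, Hapln4, Htr3a, Lin7b, LOC103692976, Pmel and Scg5. Exon 1 of Scg5 had a TSA mean depth of 0.138, against 32.9 in exon 2, exon 1 of Cacng7 1.65 against 50.2, and exon 1 of Hapln4 had 0. First exons were covered in 78.4% of the 37 genes and in 83.4% of the 4071. In Col9a2, Pcdh1 and Unc13a other exons were uncovered, and in Unc13a, with 55 annotated exons, exons 14 to 17 had no reads in the TSA libraries.

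**Figure D2:**
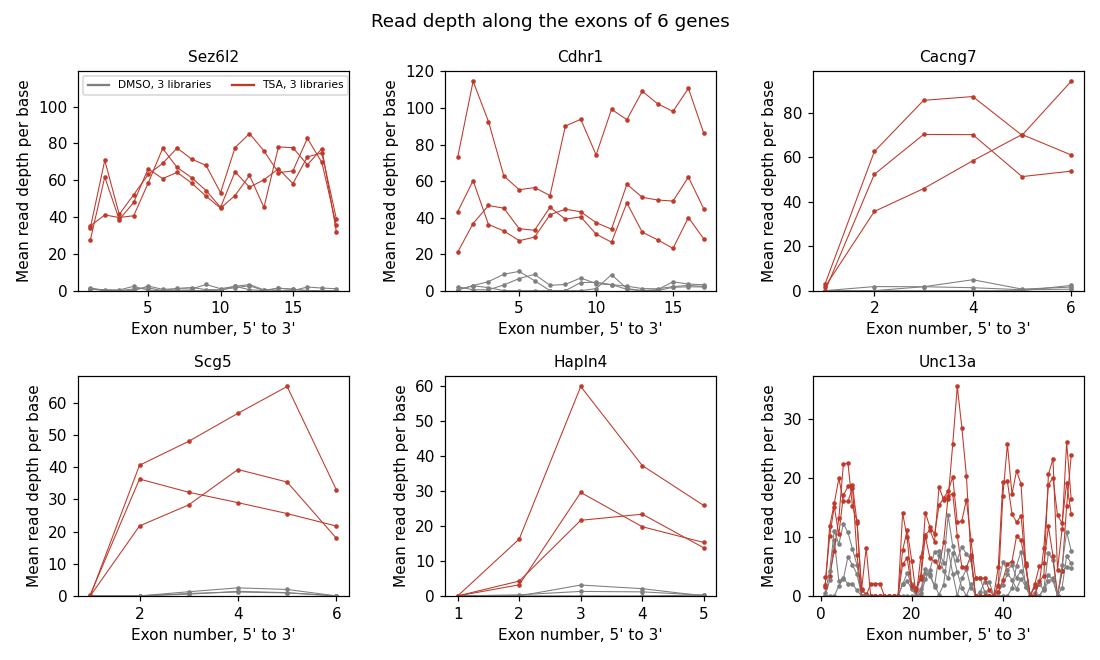
Mean read depth per base in each annotated exon, from the 5' to the 3' end, of Sez6l2, Cdhr1, Cacng7, Scg5, Hapln4 and Unc13a, with 1 line per library (grey DMSO, red TSA). Sez6l2 and Cdhr1 are covered from the first exon on, the first exons of Cacng7, Scg5 and Hapln4 are not, and Unc13a has runs of exons near 0.

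In genes with several annotated transcripts the rise fell on 1 transcript in some, such as Nmnat2 and Gdf10, and on more than 1 in others, such as Rundc3a, Tmem59l and Wasf3. The transcript of Nmnat2 that carried the rise was listed at 0 in all 3 DMSO libraries and at 3.12, 3.20 and 5.87 FPKM with TSA, while another was at 0.159, 0.132 and 0.301 FPKM with DMSO and 0.155, 0.135 and 0.135 FPKM with TSA. Gdf10 showed the same, with 1 transcript listed at 0 in the DMSO libraries and at 4.95, 5.77 and 2.03 FPKM with TSA, and the other at 0.505, 0.442 and 0.173 and 0.228, 0.249 and 0.300 FPKM. The second transcript of Rundc3a was listed at 0 with DMSO and at 3.93, 4.71 and 2.84 FPKM with TSA, while the first went from 0.391, 0.447 and 0.369 to 12.1, 12.4 and 8.36 FPKM. How reads are shared out among overlapping transcripts is an estimate of the authors' program, so these splits are less certain than the gene levels.

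The 54 genes were spread over 16 chromosomes, with 9 on chromosome 10, 8 on chromosome 1 and 5 each on 16 and 18. Only 14 pairs lay within 1 Mb of each other, the closest being Lin7b with Slc17a7 (185 kb apart) and Arap3 with Pcdh1 (193 kb). The nearest other named gene was within 5 kb for 28 of the 54, at a median distance of 4171 bp over all. Of 38 such neighbours that could be tested, 3 were called higher with limma and 0 lower, beside 1.81% and 0.316% of all genes, and their median log2 change was 0.18 against 0.03. The 3, named here after their values were seen, were Fbxo44, Kiaa0408L and Nat8l. Fbxo44 lies 577 bp from Fbxo2 on the other strand and went from a mean of 2.63 to 18.3 FPKM (log2 change 2.39, limma adjusted p = 0.0045). Kiaa0408L, near Soga3, stood at 0.302, 0.180 and 0.0840 FPKM with DMSO and 3.25, 3.37 and 1.98 FPKM with TSA (log2 change 1.68). Nat8l, near RGD1560394, went from a mean of 0.393 to 2.17 FPKM (log2 change 1.18, limma adjusted p = 0.035). A neighbour silent with DMSO, such as Kiaa0408L, could be tested only by reaching 1 FPKM in all 3 TSA libraries. Silent neighbours that did not rise are thus missing from this count and median, which are descriptions. These 3 calls were not made when TSA replicate 1 or 2 was left out, and that of Nat8l was lost with a pseudocount of 0.1 (limma adjusted p = 0.056). Other close neighbours had like means in both groups, such as Slc25a39, 730 bp from Rundc3a, at means of 60.0 FPKM with DMSO and 59.3 FPKM with TSA, and Trappc1, 440 bp from Kcnab3, at 44.9 and 41.4 FPKM. The exons of 3 members overlap those of another gene (Pmel with Dgka, Wnk4 with AABR07072184.2 and AC127084.5 with AC127084.1), and the reads of the opposite-strand Pmel and Dgka cannot be told apart where the 2 genes overlap.

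In mouse cardiomyocytes, 50 of the 54 symbols were found, all but AC095693.1, AC127084.5, LOC103692976 and RGD1560394. The mouse libraries took no part in the choice of the genes. At E18.5, 16 of the 50 (32.0%) stood at 1 FPKM or more in both libraries, as did 16 at P1, 15 at P3 and 11 (22.0%) at P7. At 1 time point or more, 22 (44.0%) did so, against 15.4% of 3906 other genes silent in the rat DMSO cultures and 92.5% of 11185 genes not silent there. Another 23 (46.0%) were under 1 FPKM in all 8 mouse libraries, against 78.7% and 5.27%. Of the 5 with the highest rat TSA levels, Rundc3a, Cdhr1 and Sez6l2 were low in the mouse after birth, with 1.25 FPKM as the highest library of Rundc3a and 0.193 FPKM as that of Cdhr1. Scg5, Htr3a, Resp18, Icam5, Clstn3, Hapln4, Tmem59l, Sprn and Pianp were below 1 FPKM in every mouse library. The highest mouse levels were those of Ccl6, Ppp1r1b, Mt3, Sox18 and Arap3, a regulator of small G proteins. Sox18 stood at 27.7 and 8.70 FPKM (E18.5), 10.1 and 11.2 (P1), 12.3 and 18.2 (P3) and 15.6 and 17.2 (P7), and Arap3 at 17.4 and 10.5 FPKM (E18.5), 8.25 and 7.45 (P1), 12.9 and 12.3 (P3) and 9.73 and 9.26 (P7).

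**Figure D3:**
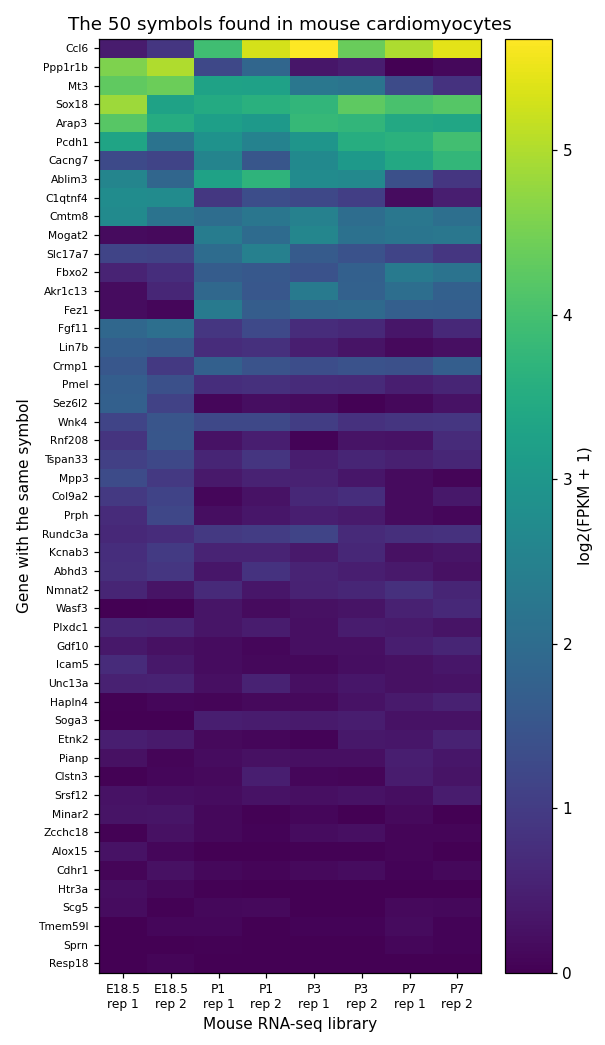
Level of the 50 symbols found in mouse (rows, ordered by their highest time point mean) in the 8 mouse RNA-seq libraries (columns), as log2(FPKM + 1) on the colour scale. Ccl6, Ppp1r1b, Mt3, Sox18 and Arap3 lie at the top, and the lower part of the map holds the genes under 1 FPKM in every library.

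Change with age was tested against E18.5 with limma over 13979 mouse genes, in comparisons that share the E18.5 libraries. Of the 50 symbols, 23 passed the filter of 1 FPKM in at least 2 libraries, 4 of them (Lin7b, Pmel, Sez6l2 and Tspan33) only through E18.5, and 27 did not pass. At P1, 6 were called higher and 4 lower, where 10.1% and 6.06% of all tested genes were. At P3, 5 were called higher and 6 lower, beside 13.0% and 8.88%, and at P7, 7 higher and 8 lower, beside 15.4% and 12.3%. The median log2 change of the 23 was -0.10, -0.06 and -0.27 at P1, P3 and P7, against 0.15, 0.16 and 0.14 over all tested genes. Which genes pass the filter bears on these counts, so that they describe the 23 and not all 50. Genes that passed only through E18.5 could hardly be called other than lower, and the lower calls include Sez6l2 at P1, P3 and P7, Lin7b at P3 and P7 and Pmel at P7. In the same way Akr1c13, Ccl6, Fbxo2, Fez1, Mogat2 and Rundc3a, under 1 FPKM in both E18.5 libraries, passed only through later ages. They could hardly be called other than higher. The higher calls include Akr1c13, Ccl6, Fez1 and Mogat2 at P1, P3 and P7 and Fbxo2 at P7, while Rundc3a was not called.

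Among the genes that were higher after birth, Ccl6, Mogat2, Fez1, Fbxo2 and Akr1c13 entered the test only through later ages. Their values are given as a description. Ccl6 stood at 0.340 and 0.861 FPKM (E18.5), 14.3 and 38.6 (P1), 50.1 and 19.7 (P3) and 30.7 and 42.6 (P7), a log2 change of 4.56 at P7. It was low in both E18.5 libraries and spread more than 2-fold between libraries of P1 and of P3. Cacng7 had a higher mean at each later age, with 1.41 and 1.24 FPKM (E18.5), 4.90 and 1.87 (P1), 5.45 and 7.28 (P3) and 9.75 and 12.5 (P7), a log2 change of 2.37 at P7 (SE 0.32, limma adjusted p = 0.00045), while its change of 0.82 at P1 was not called. In the rat TSA libraries it stood at 12.3, 15.1 and 8.60 FPKM, although FPKM of 2 species and 2 annotations compare only roughly. Mogat2, an acyltransferase of triglyceride synthesis, was at 0.115 and 0.0988 FPKM (E18.5), 4.22 and 2.93 (P1), 5.09 and 3.37 (P3) and 3.61 and 3.79 (P7) (log2 change 2.09 at P7). Fez1, a transport adaptor of axons, had 0.147 and 0.0650 FPKM (E18.5), 4.10 and 2.19 (P1), 2.71 and 2.85 (P3) and 2.29 and 2.25 (P7), and Fbxo2 0.476 and 0.680 FPKM (E18.5), 2.15 and 1.94 (P1), 1.70 and 2.34 (P3) and 4.04 and 3.47 (P7). The P7 log2 changes of Fez1 and Fbxo2 were 1.56 and 1.59. Akr1c13 rose by 1.34 at P1 and 1.497 at P7 on the log2 scale, and Slc17a7 was called higher at P1 only, from 1.24 and 1.19 to 3.00 and 4.51 FPKM, a call that missed the fold threshold with other library scaling (log2 change 0.99) and without P1 replicate 2 (0.85). Pcdh1, with a P7 log2 change of 1.05, lost its call without E18.5 replicate 2 (log2 change 0.48), P7 replicate 1 (1.21, limma adjusted p = 0.068) or P7 replicate 2 (0.89).

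Among the genes that were lower after birth, Ppp1r1b fell the most of the 23. It stood at 22.9 and 31.2 FPKM (E18.5), 1.353 and 2.66 (P1), 0.273 and 0.378 (P3) and 0 and 0.0834 (P7), a log2 change of -4.74 at P7 (SE 0.24, limma adjusted p = 8.5e-06). Mt3 had a lower mean at each later age, with 18.4 and 20.1 FPKM (E18.5), 8.58 and 8.50 (P1), 3.79 and 3.57 (P3) and 1.44 and 0.785 (P7), a log2 change of -3.28 at P7 (SE 0.18, limma adjusted p = 1e-05). C1qtnf4 was at 5.82 and 5.72 FPKM (E18.5), 0.905 and 1.53 (P1), 1.346 and 1.09 (P3) and 0.146 and 0.402 (P7) (P7 log2 change -2.42, limma adjusted p = 4.1e-05). Fgf11 fell from 2.71 and 3.22 FPKM at E18.5 to 0.271 and 0.584 FPKM at P7 (log2 change -1.48, limma adjusted p = 0.0004). Sez6l2 and Lin7b, a scaffold of cell junctions and synapses, entered the test only through E18.5, so their values are given as a description. Sez6l2 was at 2.36 and 1.17 FPKM at E18.5 and at 0.0805 and 0.218 FPKM at P7, and Lin7b at 2.22 and 2.05 and 0.111 and 0.174 FPKM. Ppp1r1b, Mt3 and C1qtnf4 were thus above 5 FPKM in both E18.5 libraries and near 1 FPKM or below at P7.

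**Figure D4:**
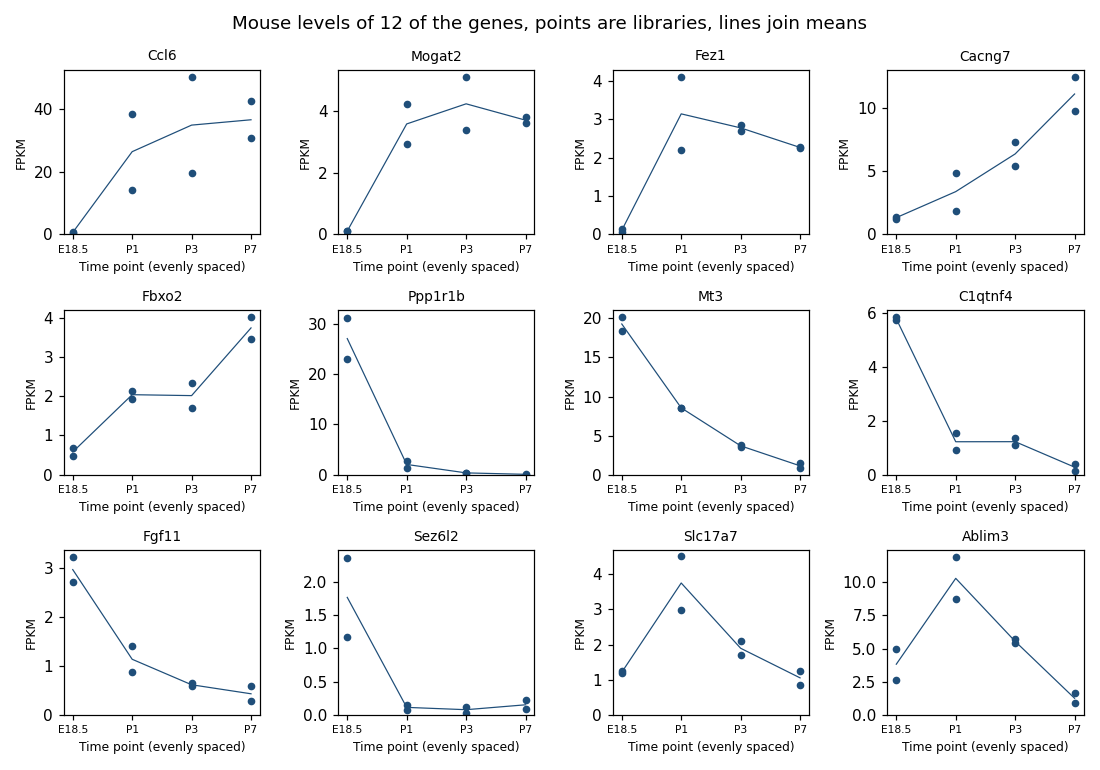
FPKM of 12 of the genes in mouse cardiomyocytes at E18.5, P1, P3 and P7, with 1 point per library and lines through the means of 2 libraries, each panel on its own axis. Ccl6, Mogat2, Fez1, Cacng7 and Fbxo2 are higher at P7 than at E18.5, Ppp1r1b, Mt3, C1qtnf4, Fgf11 and Sez6l2 lower, and Slc17a7 and Ablim3 have their highest mean at P1.

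The promoters of the same symbols in mouse are shown for genes on which these comparisons turn, as the 250 bases before a RefSeq start site (build GRCm38.p6), with sequence elements found by their letters in capitals. Searched on both strands were the GC box GGGCGG, the CCAAT box, TATAAA, the E box CACGTG, the cAMP response element TGACGTCA, the AP1 site TGANTCA and, by name, the RE1 core bound by REST and the MEF2 consensus. Cacng7 lies at chr7:3332575-3332824 on the plus strand, Fbxo2 at chr4:148160418-148160667 on the plus strand, Cdhr1 at chr14:37098348-37098597 on the minus strand, Crmp1 (the first of its 2 windows) at chr5:37241808-37242057 on the plus strand and Ccl6 at chr11:83593088-83593337 on the minus strand. Capitals mark a GC box and a CCAAT box in Cacng7, a CCAAT box in Cdhr1, a GC box in Fbxo2 and 5 GC boxes in Crmp1.
Cacng7: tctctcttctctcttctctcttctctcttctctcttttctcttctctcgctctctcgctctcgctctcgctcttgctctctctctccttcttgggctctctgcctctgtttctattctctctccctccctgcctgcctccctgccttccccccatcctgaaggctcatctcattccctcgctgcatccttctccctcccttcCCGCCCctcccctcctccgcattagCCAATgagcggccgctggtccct
Fbxo2: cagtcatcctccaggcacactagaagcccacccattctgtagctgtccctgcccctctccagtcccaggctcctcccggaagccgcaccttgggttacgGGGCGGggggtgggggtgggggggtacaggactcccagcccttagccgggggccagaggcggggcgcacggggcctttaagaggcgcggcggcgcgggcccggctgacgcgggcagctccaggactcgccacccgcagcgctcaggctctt
Cdhr1: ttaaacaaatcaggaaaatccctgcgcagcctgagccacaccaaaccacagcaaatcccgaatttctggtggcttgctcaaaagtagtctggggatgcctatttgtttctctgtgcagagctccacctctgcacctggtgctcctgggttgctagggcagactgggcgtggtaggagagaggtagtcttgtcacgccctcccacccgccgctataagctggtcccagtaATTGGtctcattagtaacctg
Crmp1: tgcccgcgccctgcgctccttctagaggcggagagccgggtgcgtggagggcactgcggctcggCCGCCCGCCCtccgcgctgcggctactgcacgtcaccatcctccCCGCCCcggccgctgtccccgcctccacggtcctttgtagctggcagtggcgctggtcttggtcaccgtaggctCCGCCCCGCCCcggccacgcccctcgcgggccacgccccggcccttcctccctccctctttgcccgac
Ccl6: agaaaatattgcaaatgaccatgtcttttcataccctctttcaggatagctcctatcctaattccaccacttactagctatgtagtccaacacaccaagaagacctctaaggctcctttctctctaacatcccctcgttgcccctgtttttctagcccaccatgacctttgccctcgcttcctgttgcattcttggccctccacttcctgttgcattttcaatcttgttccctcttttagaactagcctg
The Crmp1 and Fbxo2 windows are rich in G and C (75.6% and 71.6%), with 30 and 19 CpG pairs, while the Ccl6 window has 45.2% G and C, 2 CpG pairs and none of the 8 elements. Of all 32851 promoter windows of 300 bases in the RefSeq table, 35.7% hold a GC box, 37.4% a CCAAT box, 13.6% TATAAA, 7.15% CACGTG, 1.79% TGACGTCA, 7.81% TGANTCA, 3.19% the MEF2 consensus and 0.0517% the RE1 core. Windows were found for 32 of the 54 symbols, under the 80% needed for a statement on the whole set. A missing match says only that these letters are not in the window.

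Open chromatin at the same promoters was read from the ATAC-seq peak lists of the mouse, a peak counting when its midpoint was within 2.5 kb of an annotated start site. The lists were called per library and hold 13149 to 95257 peaks, so shares are compared within a library. Of the 50 symbols, a promoter peak was found for 15 and 14 in the E18.5 libraries, 17 and 8 in the P1, 39 and 30 in the P3, and 31 and 27 in the P7 libraries. In every library this share lay between that of the other silent genes and that of the genes not silent in the rat, but with a limit of 1 kb P1 replicate 2 had a share of 6.0%, below the 7.48% of the other silent genes. In P3 replicate 1, for instance, it was 78.0%, against 58.4% and 96.1%, and in E18.5 replicate 1 30.0%, against 15.3% and 71.8%. At least 1 library had a peak in 40 of the 50 (80%), against 62.3% of the other silent genes and 96.9% of those not silent. The shares are descriptions, as genes are not replicates. With the 13149 strongest peaks of every list 21 of the 50 had one in at least 1 library. Of the other silent genes 26.04% did, and of those not silent 84.1%. In that setting the order of the shares held in every library, but barely in P7 replicate 1. There 5 of the 50 had a peak, against 9.88% of the other silent genes.

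Fbxo2, Kcnab3, Lin7b, Plxdc1, Sez6l2 and Tspan33 had a promoter peak in all 8 libraries. Such a peak can also belong to a neighbouring gene, as for Kcnab3 and Fbxo2, whose nearest rat neighbours lie 440 and 577 bp away. Fbxo2 peaks had fold enrichments of 3.08 to 5.74 over the local background. Kcnab3 and Plxdc1 had peaks in all 8 although no RNA-seq library of theirs reached 1 FPKM, with highest values of 0.949 and 0.501 FPKM, and Sez6l2 kept its peak at P7, where its RNA was at 0.0805 and 0.218 FPKM. The converse was seen in Ccl6, with no promoter peak in any library and up to 50.1 FPKM, in Akr1c13 with none and up to 4.06 FPKM, and in Cacng7 and Sox18, each with a peak in 1 library and up to 12.5 and 27.7 FPKM. Of the 23 symbols under 1 FPKM in all mouse libraries, 16 had a promoter peak in at least 1 of the 8. Of the other silent genes, taken at any mouse level, 62.3% had one. The 10 with none were Akr1c13, Ccl6, Crmp1, Hapln4, Minar2, Pianp, Resp18, Sprn, Srsf12 and Tmem59l. Whether these promoters open in rat cells with TSA was not measured in these data.

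**Figure D5:**
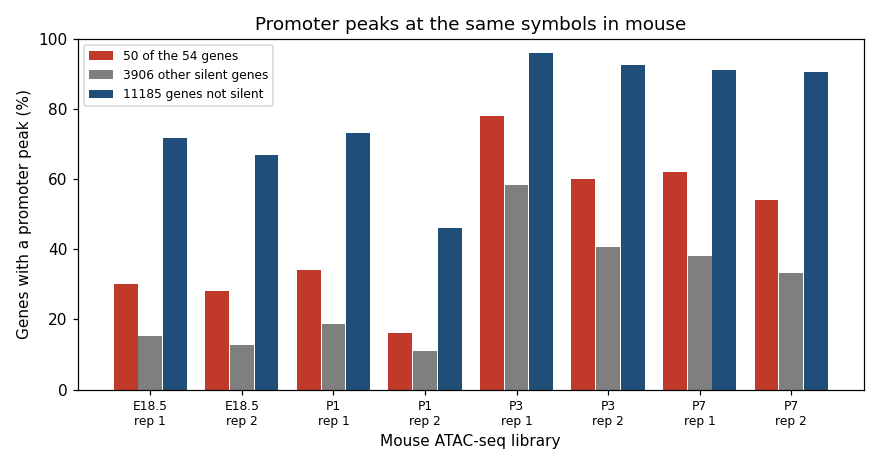
Share of genes with an ATAC-seq peak within 2.5 kb of a start site in each of the 8 mouse libraries, in percent, for the 50 symbols found in mouse (red), other genes silent in the rat DMSO libraries (grey) and genes not silent there (blue). In every library the red bar lies between the grey and the blue one, from 16% in P1 replicate 2 to 78.0% in P3 replicate 1.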

How the data were processed

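Per the file headers and the methods, the authors aligned trimmed, poly-A selected 150 bp paired-end reads to mm10 or rn6 with HISAT2 2.1.0 and estimated transcripts with StringTie on given annotations. The deposited tables give FPKM, TPM and coverage (mean read depth) per transcript and exon. The deposited ATAC-seq peak lists, called per library by the authors with MACS2, give a score, a fold enrichment (ratio over local background) and −log10 p and q values. No read counts, rat chromatin data or rat genome were used here, and the chromatin contact (HiChIP) files were not analysed here. The versions are those of the methods and the submitters' processing notes.

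A gene's FPKM was the sum over its transcripts. A rat gene was named when any rat file paired its ID with a name, since the 4 genes Fbxo2, Resp18, Sprn and Tmem59l lack the name in at least 1 file. The genes, gene lists and comparisons were chosen with earlier results of these data known. Levels were compared with limma 3.58.1 (R 4.3.3) on log2(FPKM + 1), with a mean-variance trend, two-sided and Benjamini-Hochberg adjusted over all tested genes. A fold change on this scale understates the change of low genes. A gene was tested at 1 FPKM or more in at least 2 mouse or 3 rat libraries. Calls needed an adjusted p under 0.05 and a log2 change above 1 in size. The FPKM came from the authors without counts, so no count model was run in place of the edgeR test of the study. Reads per gene and library were estimated from coverage, transcript length and a read length of 150 bp. Mouse symbols were matched exactly to the rat names, which does not test orthology. Named members were the 15 with the highest TSA mean, the 5 with the largest ratios, those on a list, the 5 highest in mouse, the 5 largest rises and falls there and the 3 nearest each threshold. Genes that are no members were named from the lists, at most 4 a list, and other genes where the text says so.

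Same-numbered rat libraries deviated together from their group means (correlations 0.224, 0.194 and 0.346 over 13625 genes). The libraries with the highest number stood apart in both groups, which alone can raise all of these values. No values for libraries of different number are set beside them. Whether the numbers pair the rat libraries was thus not tested, and the main rat fit did not use them. The fit with the replicate number as a block changed the rat calls named here only for Upk1b, whose blocked value stands beside it. The mouse numbers did not pair the libraries. Alternatives were another pseudocount, no filter, TPM, median-of-ratios scaling, the replicate block, other thresholds and each library left out. The scripts were tested on simulated data.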

Additional observations from a re-analysis of the deposited data

Results flagged for a closer look

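Ablim3, an actin-binding LIM protein, was the only one of the 23 tested genes that was called higher at 1 age and lower at another. In the mouse it stood at 4.97 and 2.66 FPKM at E18.5, 8.71 and 11.9 FPKM at P1, 5.69 and 5.39 FPKM at P3 and 1.61 and 0.872 FPKM at P7. It was higher at P1 than at E18.5 by 1.26 on the log2 scale and lower at P7, at -1.08. Tested directly with limma, P7 against P1 gave a log2 change of -2.34 (SE 0.28, adjusted p = 0.0013). The call at P1 missed the fold threshold without E18.5 replicate 2 (0.91), and the call at P7 was not made without E18.5 replicate 1 (-0.73) or P7 replicate 2 (-0.84). It was singled out after its values were seen. Groups of 2 or 3 libraries are too small for a check of single outlying libraries.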

How the results depend on the processing

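The number of genes that meet the thresholds moved with them. It was 54 as described, 20 with DMSO levels under 0.5 FPKM, 19 with TSA levels of at least 3 FPKM and 155 when group means had to pass. With 1 library left out it lay between 59 and 84 (84 without TSA replicate 3), and with both replicates 3 left out, an alternative chosen after seeing the data, it was 111. TPM gave 68 genes, 20 of them shared with the 54, and median-of-ratios scaling 52, with 49 shared. A name in every rat file, also added later, left 50. The cause of the low overlap with TPM, whose values stand on another scale at the same thresholds, was not tested.

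Of all rat genes, 290 were called with TSA. Leaving out 1 library gave 0 to 446, and the other settings 221 to 394. With the replicate number as a block 339 rat genes were called, 257 of them among the 290. With both replicates 3 left out 394 were called, 58.6% of them higher, against 85.2% with all libraries.

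The number of the 54 genes called in mouse stayed within 1.5 times its value under every setting. With 1 library left out it was 9 to 12 at P1, 10 to 12 at P3 and 11 to 15 at P7, the lowest at P7 without either E18.5 library, where 19 genes passed the filter. Other settings gave 9 to 14, 11 to 14 and 14 to 18. The mouse fit with the replicate number as a block gave 10, 11 and 15 calls, as without it. Of the single calls, Mt3 at P1 (-0.90 with TPM), Slc17a7 at P1, Pcdh1 at P7 (adjusted p = 0.12 without a filter), Ablim3 and Pmel at P7 (-0.95 without P7 replicate 1) missed a threshold under some setting, and no direction was reversed. A promoter peak was found for 40 genes, 34 within 1 kb (where the order of the shares changed in P1 replicate 2) and 21 with equal numbers of peaks per list. Depth limits the DMSO levels, since 5 genes had a DMSO library at 0.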
